A study of Mus musculus with 60 samples.

Results

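The genes described here are 10 markers and effector genes of natural killer (NK) cells and cytotoxic T lymphocytes, namely Gzma, Gzmb, Prf1, Nkg7, Klrd1, Ncr1, Il2rb, Klrb1c, Eomes and Ccl5. They were chosen by symbol, and 9 of the 10 had a probe set of their own among the 18193 genes measured. The only probe set annotated to Klrb1c, an NK cell receptor, also names Klrb1b, so no value is given for it. The 9 measured genes had 12 probe sets in all. For Prf1, Il2rb and Eomes, which had 2 each, the probe set with the higher mean over the 60 arrays was used. In RNA from a lung lobe, a mix of cells, fewer lymphocytes and less RNA per lymphocyte cannot be told apart.

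NK cells and cytotoxic T lymphocytes kill infected or altered cells by releasing granules that hold a pore-forming protein and serine proteases, the granzymes. Killing by NK cells is set by the balance of activating and inhibitory surface receptors. The survival of both cell types depends on interleukins read through shared receptor chains, and T-box and Runx transcription factors hold their identity. Both cell types are resident in the mouse lung, where they are known for early defense against inhaled viruses.

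Lung tissue came from 60 male Balb/c mice, 1 array per mouse, in 12 groups of 5 mice. The study's methods name the right diaphragmatic lobe as the source of the RNA. SPIO mice inhaled an aerosol of superparamagnetic iron oxide nanoparticles for 4 h, and CON mice, the sham controls, inhaled the humidified helium-oxygen and filtered air mixture without particles. Lungs were taken 0, 6, 24, 48, 96 and 168 h after the exposure ended, and every SPIO group has a CON group of the same time. All mice had been accustomed to nose-only restraint and the gas mixture on the days before. Per the study's methods, breathing was measured before and during the exposure in mice assigned to 96 h, and mice assigned to 168 h were afterwards housed in metabolism cages on a liquid diet. Levels are log2 values made with RMA (robust multi-array average), so a difference of 1 is a 2-fold difference in signal.

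The arrays were alike in overall level, with medians between 5.53 and 5.64 and a lowest correlation of 0.973 between any pair. The mean of 10 lung epithelial markers lay between 13.17 and 13.55 in every array, so that the labelled tissue's defining genes were present throughout. In the array of CON mouse 1 at 0 h, Alb, the liver's albumin gene, was at 14.02, against 5.27 to 11.35 in the other 59 arrays.

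Promoters are shown as a description. The members moved together from mouse to mouse, as given further on, and the part of promoter sequence in this was not tested. RefSeq promoter windows were found for 7 of the 10 listed genes, and not for Ccl5, Il2rb and Klrd1. The 250 bases before the transcription start were searched on both strands for TGTGGT (letters of a Runx site), GGTGTGA (T-box) and CCGGAAG (ETS). The Runx letters were present in 6 of the 7 windows (Gzma, Gzmb, Prf1, Nkg7, Ncr1 and Klrb1c) and not in that of Eomes, while 15.9% of 27025 genes with a window hold them. The T-box letters were present only in the window of Nkg7 (3.84% of all genes), and the ETS letters in none of the 7 (7.83% of all genes). A match of letters is a description, not evidence of a bound site. The windows of 4 members are printed 5′ to 3′ on the gene's strand (RefSeq, build GRCm38.p6), with each Runx or T-box match, on either strand, in capitals.
Gzma (chr13:113100982-113101231, minus strand): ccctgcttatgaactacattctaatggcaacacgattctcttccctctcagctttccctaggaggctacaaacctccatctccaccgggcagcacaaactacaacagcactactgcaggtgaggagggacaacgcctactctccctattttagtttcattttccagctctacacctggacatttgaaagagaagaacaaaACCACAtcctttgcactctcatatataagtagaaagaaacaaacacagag
Gzmb (chr14:56262335-56262584, minus strand): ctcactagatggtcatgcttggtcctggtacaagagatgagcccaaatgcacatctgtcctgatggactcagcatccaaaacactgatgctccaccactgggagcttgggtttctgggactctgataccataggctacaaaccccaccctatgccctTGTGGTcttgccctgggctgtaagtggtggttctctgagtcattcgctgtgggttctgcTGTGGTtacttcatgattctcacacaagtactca
Nkg7 (chr7:43436888-43437137, plus strand): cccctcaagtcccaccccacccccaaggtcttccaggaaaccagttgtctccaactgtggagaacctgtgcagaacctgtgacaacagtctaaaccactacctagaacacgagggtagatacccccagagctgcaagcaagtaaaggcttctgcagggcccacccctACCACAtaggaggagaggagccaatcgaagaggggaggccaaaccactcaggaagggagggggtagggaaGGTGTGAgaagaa
Ncr1 (chr7:4337465-4337714, plus strand): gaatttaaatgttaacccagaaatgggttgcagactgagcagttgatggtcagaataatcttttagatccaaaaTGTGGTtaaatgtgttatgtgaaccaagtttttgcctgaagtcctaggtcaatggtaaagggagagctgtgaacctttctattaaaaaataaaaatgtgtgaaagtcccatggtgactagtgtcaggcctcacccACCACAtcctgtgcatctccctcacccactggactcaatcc
Gzmb and Ncr1 hold the Runx letters at 2 places each. Counted back from the start as -1, the Runx match of Gzma spans -50 to -45 and that of Nkg7 -83 to -78. The T-box match of Nkg7 spans -13 to -7.

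**Figure D1:**
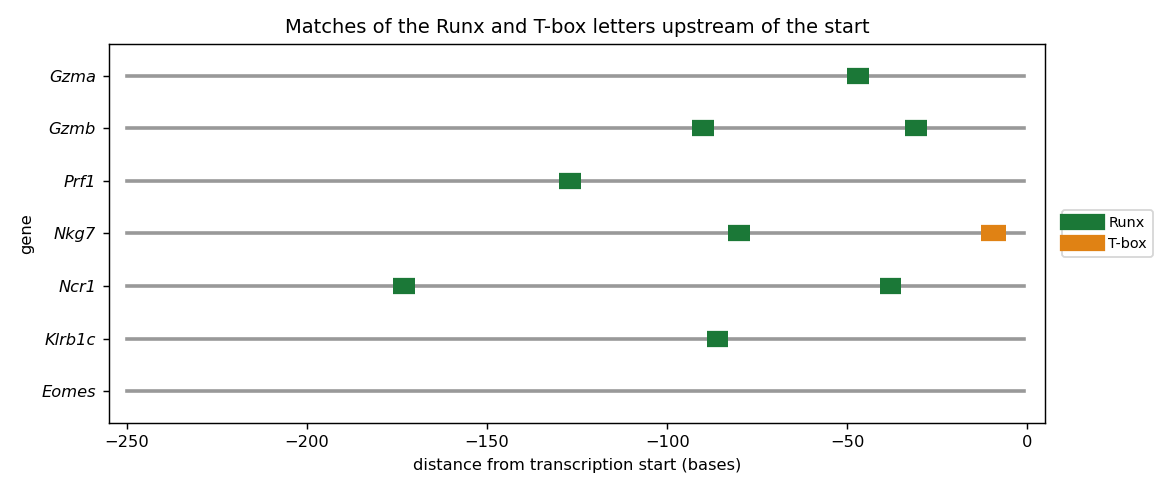
Positions of the Runx (green) and T-box (orange) letters in the 250 bases before the transcription start of the 7 listed genes with a RefSeq window; the horizontal axis is the distance from the start in bases. Of the 7 genes, 6 have at least 1 Runx match, Eomes has none, and Nkg7 alone has a T-box match.

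Between SPIO and CON mice, 2 of the 9 genes passed the test at any time after exposure. At 24 h Nkg7 and Eomes were higher in SPIO than in CON mice, and the other 7 members did not pass the test. No member passed at any other time. The test was limma on all 60 arrays with Benjamini-Hochberg adjustment over 18193 genes, and a gene passed at an adjusted p under 0.05. Of all genes, 23.9% passed at 24 h, and 20.3% were higher in SPIO mice, so that 2 of 9 members is close to the share among all genes.

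**Figure D2:**
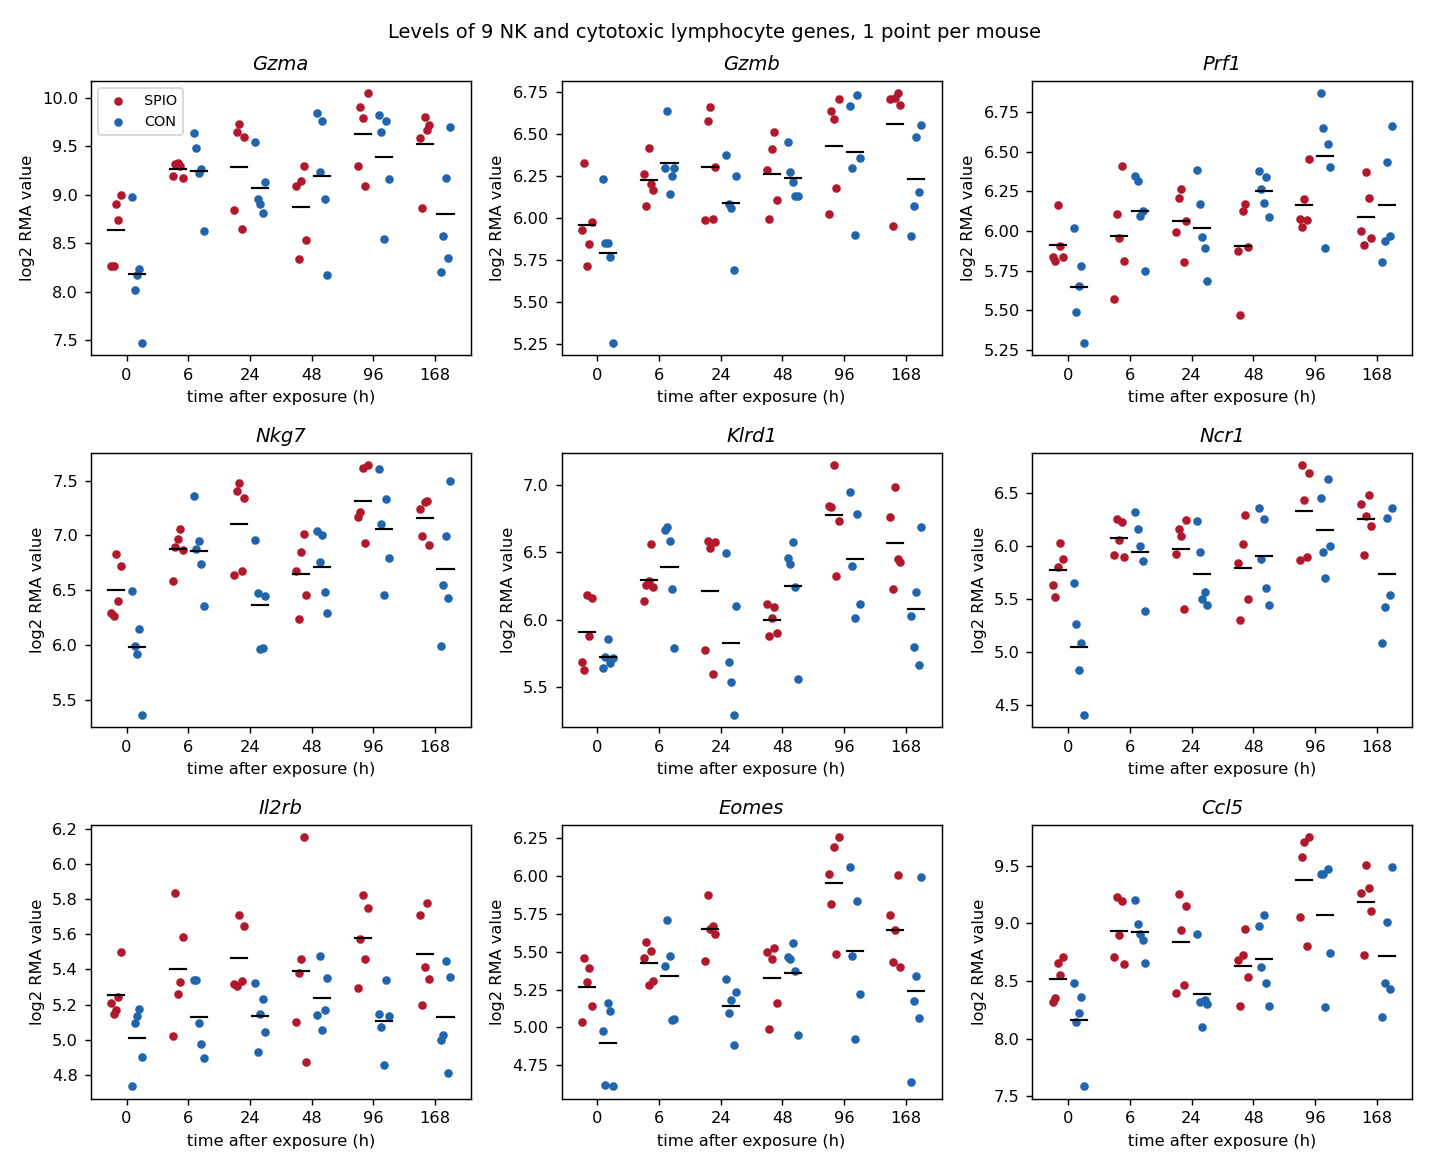
Level of each of the 9 genes (log2 RMA value, vertical axes) in every mouse by time after exposure (h), SPIO mice in red left of CON mice in blue, with a bar at the mean of 5 mice. Most SPIO and CON groups of a time overlap, and Eomes at 24 h is the 1 case in which they do not.

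The granule genes come first. Nkg7 encodes a membrane protein of cytotoxic granules that is needed for their release (chromosome 7, 43437138 to 43438246, GRCm38.p6). At 24 h its log2 levels were 6.64, 7.40, 7.48, 6.68 and 7.34 in SPIO mice, against 6.96, 6.48, 5.96, 5.98 and 6.45 in CON mice. In 3 SPIO mice it lay above every CON mouse, while the other 2 lay below the highest CON mouse. The difference was 0.74 on the log2 scale (SE 0.22), a 1.67-fold higher level (95% confidence interval 1.23 to 2.28), with a limma adjusted p of 0.012 and an exact permutation p of 0.04 (two-sided, 5 against 5 mice, smallest possible p 0.0079). Without CON mouse 3 of that time the limma adjusted p was no longer under the threshold (0.05 after rounding).

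Gzma, Gzmb and Prf1 did not pass at any time. Gzma encodes granzyme A, a protease with trypsin-like specificity. At 168 h its log2 levels were 9.58, 8.86, 9.80, 9.66 and 9.72 in SPIO mice, against 8.20, 8.57, 9.18, 8.34 and 9.70 in CON mice. All SPIO mice but mouse 2 were at 9.58 or higher, as was CON mouse 5. The difference was 0.73 (SE 0.28), with a limma adjusted p of 0.16 and an exact permutation p of 0.071. Without CON mouse 5 it was 0.95 with a limma adjusted p of 0.046. No other single omission among the mice of 168 h made Gzma pass.

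Gzmb encodes granzyme B, which cleaves after aspartate and starts apoptosis in the target cell. Its differences over the 6 times ran from -0.10 at 6 h to 0.33 at 168 h (SE 0.16), with limma adjusted p-values between 0.3 and 0.95. At 168 h its log2 levels were 6.71, 5.96, 6.71, 6.74 and 6.67 in SPIO mice, against 5.89, 6.07, 6.48, 6.15 and 6.55 in CON mice. SPIO mouse 2 lay near the bottom of the CON range, and the other 4 lay above all CON mice.

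Prf1, which encodes the pore-forming perforin, had a difference below 0 at 4 of the 6 times. At 48 h its log2 levels were 5.88, 5.47, 6.13, 6.17 and 5.90 in SPIO mice, against 6.38, 6.26, 6.18, 6.34 and 6.09 in CON mice. The groups overlapped, since 2 SPIO mice lay above the lowest CON mouse. The difference was -0.34 (SE 0.16, limma adjusted p 0.15, exact permutation p 0.032). Whether this difference changed between 0 h, where it was 0.26, and 48 h was tested as an interaction, with a change of -0.61 (SE 0.22) and a limma adjusted p of 0.16. The second Prf1 probe set gave 0.03 (SE 0.10) at 48 h.

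Among the receptors, Ncr1 encodes NKp46, an activating receptor that marks NK cells. At 0 h its log2 levels were 5.63, 5.52, 5.80, 6.02 and 5.87 in SPIO mice, against 5.65, 5.26, 4.83, 5.08 and 4.41 in CON mice. In 3 SPIO mice Ncr1 lay above every CON mouse, and CON mouse 1 lay within the SPIO range. The difference was 0.72 (SE 0.23), or 1.65-fold (1.2 to 2.26), the highest of the 9 members at 0 h, where 3.67% of all genes passed. It had a limma adjusted p of 0.06 and an exact permutation p of 0.024. Leaving out CON mouse 1, the mouse with the high Alb value, gave 0.87 with a limma adjusted p of 0.021. No other single omission among the mice of 0 h made Ncr1 pass.

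Klrd1 encodes CD94, the partner chain of the NKG2 receptors. At 24 h its log2 levels were 5.78, 6.58, 6.53, 5.60 and 6.58 in SPIO mice, against 6.50, 5.69, 5.53, 5.29 and 6.10 in CON mice. In SPIO mice 3 values lay between 6.53 and 6.58 and the other 2 at 5.60 and 5.78, and CON mouse 1 was close to the upper 3. The difference was 0.39 (SE 0.21, limma adjusted p 0.18, exact permutation p 0.22). Without CON mouse 1 Klrd1 passed at 24 h with an adjusted p that rounds to 0.05. No other single omission among the mice of 24 h made Klrd1 pass. At 168 h the difference was 0.49 (SE 0.21, limma adjusted p 0.21).

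Il2rb encodes the receptor chain shared by interleukin-2 and interleukin-15, the survival signal of NK cells. Its difference was above 0 at all 6 times, from 0.16 at 48 h to 0.47 at 96 h (SE 0.15), but its second probe set, of about the same mean level, was at -0.04 at 6 h and -0.09 at 48 h (SE 0.12). At 96 h its log2 levels were 5.29, 5.57, 5.82, 5.46 and 5.75 in SPIO mice, against 5.14, 5.07, 4.86, 5.34 and 5.14 in CON mice. In 4 SPIO mice Il2rb lay above all CON mice, and SPIO mouse 1 lay just below the highest of them. The limma adjusted p was 0.11 (1.41% of all genes passed at 96 h) and the exact permutation p was 0.016. The second probe set was at 0.09 at that time.

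Eomes encodes eomesodermin, a T-box factor of mature NK cells and of CD8 T cells (chromosome 9, 118478186 to 118486132, GRCm38.p6). At 24 h its log2 levels were 5.44, 5.87, 5.65, 5.67 and 5.62 in SPIO mice, against 5.32, 5.09, 5.18, 4.89 and 5.23 in CON mice. Every SPIO mouse lay above every CON mouse, which was the case for 9.96% of all genes at that time. The difference was 0.51 (SE 0.18), or 1.42-fold (1.11 to 1.81), with a limma adjusted p of 0.028 and an exact permutation p of 0.0079. The second Eomes probe set had a difference of 0.03 at 24 h (SE 0.17, limma adjusted p 0.93 over all probe sets). Without SPIO mouse 2 or without CON mouse 4 the limma adjusted p of the main probe set was 0.084 and 0.081.

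Ccl5 encodes RANTES, a chemokine that NK cells and memory CD8 T cells store and release to draw in T cells and monocytes. At 24 h its log2 levels were 8.39, 9.25, 8.94, 8.47 and 9.15 in SPIO mice, against 8.90, 8.32, 8.10, 8.33 and 8.30 in CON mice. All 5 SPIO mice were above 4 of the CON mice, and CON mouse 1 was within the SPIO range. The difference was 0.45 (SE 0.22, limma adjusted p 0.12, exact permutation p 0.056). It was 0.46 at 168 h (SE 0.22, limma adjusted p 0.26).

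Across the 9 members the median difference was 0.36 at 0 h, 0.01 after 6 h, 0.33 after 24 h, -0.07 after 48 h, 0.26 after 96 h and 0.46 after 168 h. Single mice moved these medians, so that they have no firm order. Without CON mouse 5 of 0 h the median at 0 h was 0.22, and without CON mouse 3 of 96 h that at 96 h was 0.11 (0.39 without CON mouse 1). With 1 mouse left out it was -0.11 to 0.10 after 6 h, 0.26 to 0.38 after 24 h, -0.17 to 0.03 after 48 h and 0.33 to 0.65 after 168 h. Over all genes the median lay between 0.01 and 0.09. All 9 members had values above 0 at 0 h and at 24 h, while 8 did after 96 h and after 168 h, 6 after 6 h and 2 after 48 h. Of all genes, 58.7% were above 0 at 0 h, 61.6% after 6 h and 66.5% after 24 h. The share of all genes was 58.8% after 48 h, 69% after 96 h and 53.7% after 168 h. The counts of members are not made of independent genes, as the correlations given further on show. At 168 h the 8 members above 0 ranged from 0.33 (Gzmb) to 0.73 (Gzma), and Prf1 was at -0.07.

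Counts without adjustment show where the members came near the threshold. At 168 h, 7 of 9 members reached an unadjusted p under 0.05 in limma, against 16.8% of all genes. The adjusted p-values of these 7 were 0.16 to 0.28 (2.19% of all genes passed). By the exact permutation test, 0 of the 9 members had a p under 0.05 at 168 h, and these 7 were at 0.071 to 0.13. At 24 h the unadjusted limma count was 4 (35.2% of all genes), and at 0 h it was 3 (17.7% of all genes), namely Ncr1, Nkg7 and Eomes. It was 2 after 96 h (14.3% of all genes), 1 after 48 h (26.5%) and 0 after 6 h (11.9%). After 6 h and 48 h, where 1.17% and 12.5% of all genes passed, the members' adjusted p-values were 0.5 to 0.99 and 0.15 to 0.95. The analysis of variance named in the study's methods passed none of the 9 at any time. Of all genes it passed 2.79% at 0 h, 1.55% after 6 h, 11.6% after 24 h, 6.91% after 48 h, 1.72% after 96 h and 2.07% after 168 h, and 0 of 9 is near these shares.

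**Figure D3:**
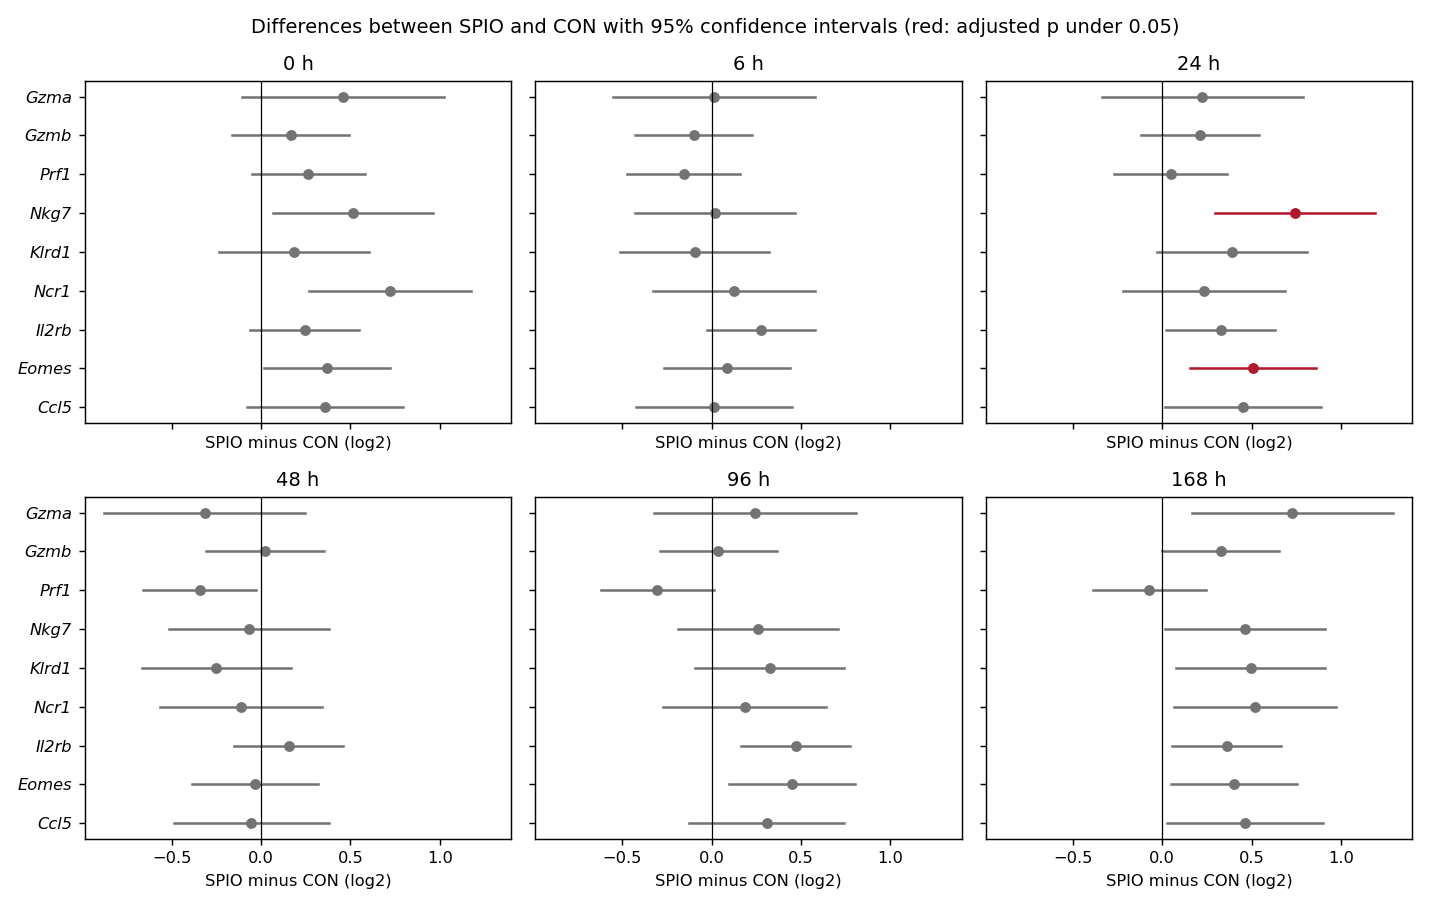
SPIO minus CON difference of each of the 9 genes on the log2 scale (horizontal axes) at the 6 times, with 95% confidence intervals from limma; red marks an adjusted p under 0.05. The 2 red points are Nkg7 (0.74) and Eomes (0.51) at 24 h, and at 168 h all genes but Prf1 lie to the right of 0.

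The change of each difference from that at 0 h was tested for the 5 later times, which share the 0 h mice. Of 45 such tests none passed with limma, and 3 had an unadjusted p under 0.05 (Prf1 and Ncr1 at 48 h and Prf1 at 96 h). The changes ran from -0.83 (Ncr1 at 48 h, SE 0.32, adjusted p 0.18) to 0.31 (Klrd1 at 168 h, SE 0.29, adjusted p 0.83). The share of all genes that passed was 0.885% for the change to 6 h (12.6% by unadjusted p), 1.18% to 24 h (19.8% unadjusted), 0.61% to 48 h (16.8% unadjusted), 0.022% to 96 h (7.04% unadjusted) and 0.044% to 168 h (8.1% unadjusted).

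Within the sham controls, most members were lowest right after the exposure. In CON mice at 0 h, 8 of the 9 members were lower than in the other 5 CON groups, while 4.22% of all genes were lower in this contrast. The largest differences were those of Gzma (8.18 in CON mice at 0 h, against 9.14 over the other CON groups) and Ncr1 (5.05 in CON mice at 0 h, against 5.89). The difference was -0.96 for Gzma (SE 0.22, limma adjusted p 0.0024) and -0.84 for Ncr1 (SE 0.18, limma adjusted p 0.001). It was -0.75 for Nkg7, -0.60 for Ccl5, -0.56 for Prf1, -0.48 for Klrd1, -0.46 for Gzmb and -0.42 for Eomes, with limma adjusted p-values between 0.0017 and 0.048. Il2rb was at -0.14 (adjusted p 0.51). CON mouse 5 at 0 h was the lowest of its group for 7 members, and without it 4 of the 9 passed. No group was sampled before the exposure, so that a lower level at 0 h and a higher level later cannot be told apart.

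In SPIO mice at 0 h all 9 members were below the other 5 SPIO groups by 0.13 to 0.68, but none passed (limma adjusted p 0.07 to 0.7), where 3% of all genes passed. An unadjusted p under 0.05 was reached by 6 of the 9, against 15.4% of all genes. Whether the 0 h contrast differs between the arms beyond the SPIO minus CON difference at 0 h was not tested. At 96 h the members were above the rest of their arm by 0.16 to 0.58 in SPIO mice and by up to 0.53 in CON mice, except Il2rb, which was at -0.02 in CON mice. None passed in SPIO mice (limma adjusted p 0.074 to 0.68, 0.566% of all genes passed), where 6 had an unadjusted p under 0.05 (11.6% of all genes). None passed in CON mice (limma adjusted p 0.061 to 0.95, 1.07% of all genes passed), where 7 had an unadjusted p under 0.05 (19.6% of all genes). The 96 h mice were those whose breathing had been measured, and time and measurement cannot be told apart.

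Every one of the 9 members had its lowest group mean in CON mice at 0 h (13.1% of all genes), and 7 had their highest in SPIO mice at 96 h (14.9% of all genes). For these 7 members the mice of the highest group did not overlap those of the lowest, which was also the case for 46.3% of all genes. For all 9 members, neighbors at the bottom and at the top of the order of group means overlapped. Ccl5, for example, averaged 9.38 ± 0.42 in SPIO mice and 9.07 ± 0.54 in CON mice at 96 h (SD, n = 5 each), and 8.52 ± 0.17 in SPIO mice and 8.16 ± 0.35 in CON mice at 0 h (SD, n = 5 each).

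**Figure D4:**
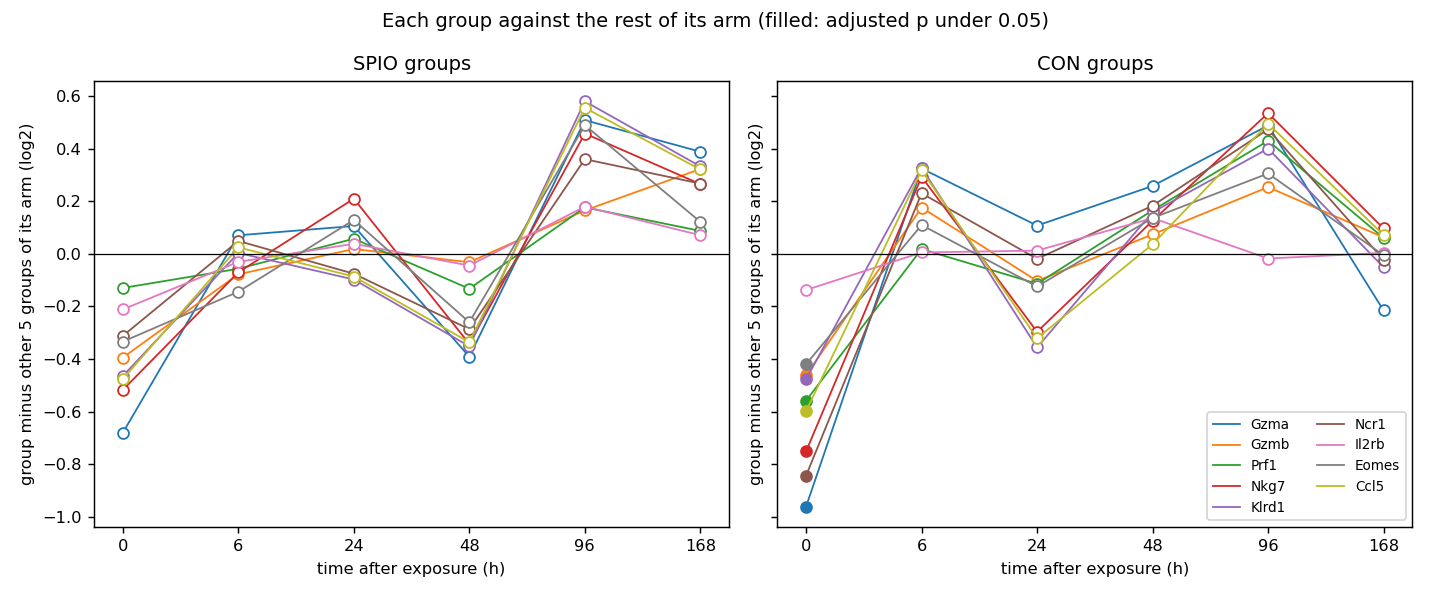
Difference of each group from the mean of the other 5 groups of its own arm (log2, vertical axis) by time after exposure (h), SPIO groups on the left and CON groups on the right, 1 line per gene; filled points have an adjusted p under 0.05. The 8 filled points all stand at 0 h in CON mice, between -0.42 and -0.96, and both arms have their highest points at 96 h.

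At 24 h, when Nkg7 and Eomes passed between the arms, it was the CON group that stood apart across the array: 28.7% of all genes differed between CON mice at 24 h and the other CON groups, against 0.126% for SPIO mice at 24 h. None of the 9 members passed in either contrast with limma, and 0 in SPIO mice and 1 in CON mice had an unadjusted p under 0.05 (8.4% and 40.4% of all genes). Nkg7 was at 0.21 in SPIO mice and -0.30 in CON mice relative to the rest of their arms (limma adjusted p 0.84 and 0.19). For Eomes these values were 0.13 in SPIO mice and -0.12 in CON mice (limma adjusted p 0.89 and 0.51).

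The members varied together from mouse to mouse. Over the 60 mice, deviations from the group means correlated positively for all 36 pairs, with Pearson r between 0.36 and 0.91 and Spearman rho between 0.39 and 0.91 (permutation p adjusted over the 36 pairs at most 0.0055). Gzma and Ccl5 had the highest value (r = 0.91, rho = 0.91, each with permutation p 1e-05, the smallest 100000 resamples can give), with r = 0.88 in SPIO mice and 0.92 in CON mice. Leaving out the 2 mice farthest from the median of the first gene left r at 0.91. Nkg7 correlated with Ccl5 at r = 0.90 (rho 0.88) and with Gzma at r = 0.89 (rho 0.90), both with permutation p 1e-05. The 8 pairs with Il2rb were the weakest, with r between 0.36 and 0.48, while the 28 pairs without it lay between 0.53 and 0.91.

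**Figure D5:**
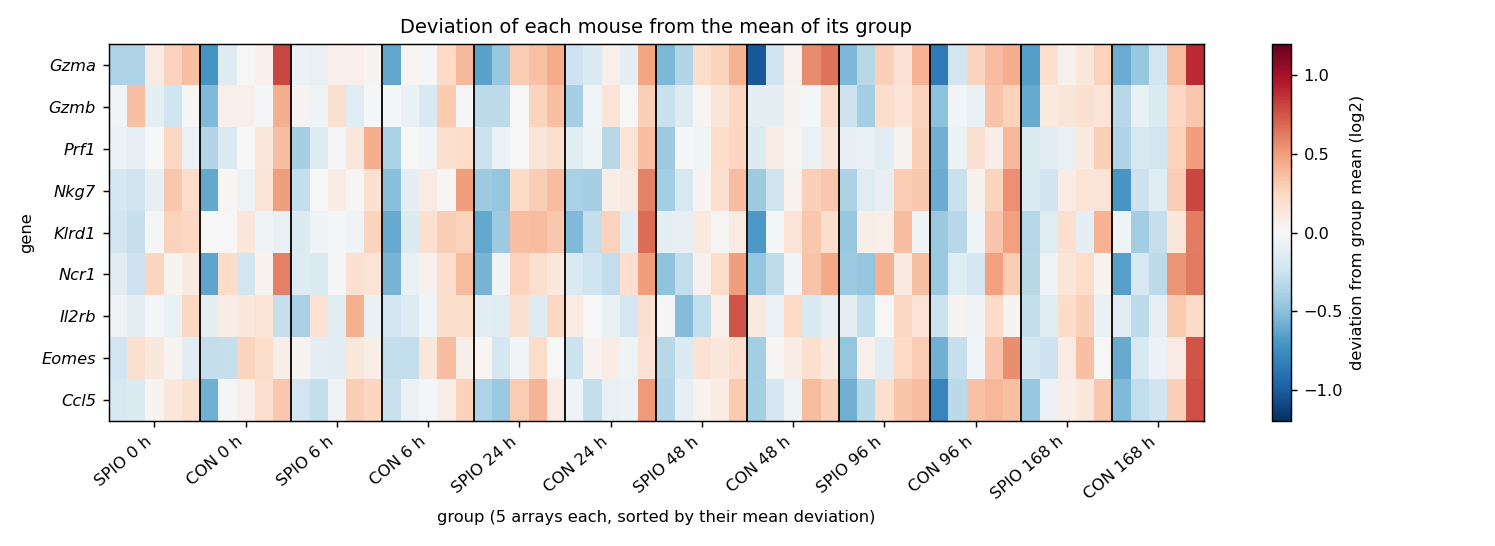
Deviation of each mouse from the mean of its group (log2, color) for the 9 genes (rows) in 60 mice (columns), 5 per group, sorted within a group by their mean deviation. Columns tend to be red or blue from top to bottom, as in CON mice at 96 h and 168 h, and the Il2rb row follows the others least.

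Some mice deviated from their group in most members at once. CON mouse 1 at 24 h was the highest of its group for 9 of 9 members, and CON mouse 3 at 96 h the lowest for 9 of 9. CON mouse 5 at 168 h was the highest for 8, with a mean over the members of 7.14 against 6.09 to 6.82 in the other 4. The SD of the members' mean within a group was 0.13 to 0.30 in SPIO groups and 0.25 to 0.43 in CON groups. The SEs of the SPIO minus CON differences, 0.15 to 0.28 on the log2 scale, use 1 estimate of the spread per gene over all 12 groups. Differences in spread between groups are therefore not reflected in them.

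Outside the list, the genes whose deviations were most like the mean of the 9 members over the 60 mice were Ctsw (r = 0.83), which encodes a cathepsin of cytotoxic lymphocytes, Ms4a4b (0.82), Ecscr (0.80), Spn (0.78), the leukocyte surface protein CD43, and Prkcb (0.78), a protein kinase C of lymphocytes. For Ccl5 alone they were Septin4 (0.82), Ctsw (0.80), Ddc (0.79), Ecscr (0.79) and Phykpl (0.78). These genes were picked as the highest of all, and the r values are a description.

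Other genes of the cytotoxic program were read in the same way, beside the 20.3% of all genes that rose and the 3.66% that fell at 24 h. For these and the later lists, rose and fell mean higher and lower in SPIO than in CON mice of the same time. The share that rose was near or below that of all genes in each of the 5 lists that follow. Of 17 other granule genes, 3 rose at 24 h and none fell: Unc13d, a priming factor of granule release (0.47, SE 0.09), Ctsw (0.51, SE 0.16) and Lamp1, a lysosomal membrane protein of many cells (0.21, SE 0.04). Ctsw also rose at 0 h (0.60, SE 0.16), the only one of the 17 to pass there. The list's median was 0.21 at 24 h, against 0.09 over all genes.

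Of 23 other NK cell receptors and adaptors, 4 rose and 1 fell at 24 h, with a median of 0.18. Fcer1g (0.84, SE 0.14) and Hcst (0.59, SE 0.15), adaptors of activating receptors that myeloid cells also use, and Klrb1f (0.80, SE 0.19), a lectin-like receptor, rose. At 0 h Cd27 (0.95, SE 0.23), a costimulatory receptor of T and NK cells, and Cd96 (0.53, SE 0.15) rose, at 6 h the activating receptor gene Cd226 fell (-0.45, SE 0.09, at log2 means of 3.63 in SPIO mice and 4.08 in CON mice), and at 96 h Itga2, an integrin chain, fell (-0.72, SE 0.19). None of the 23 passed at 48 h or 168 h.

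Of 12 other transcription factors of these cells, 3 rose and 1 fell at 24 h. Ikzf3 (0.78, SE 0.18), a lymphocyte zinc finger factor, and Runx3 (0.59, SE 0.17), a Runx factor of CD8 T and NK cells, rose. Zeb2, which other lung cells also express, fell at 24 h (-0.58, SE 0.17) and at 6 h, 96 h and 168 h (-0.68, -0.82 and -0.76, SE 0.17 each).

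Of 16 genes of interleukin-2, 12, 15 and 18 signaling, Stat5a rose at 24 h (0.49, SE 0.09) and Stat5b at 48 h (0.32, SE 0.09), both encoding factors that carry the signal of Il2rb to the nucleus. Il18r1, a receptor chain of interleukin-18, fell at 96 h (-0.51, SE 0.13). Of 14 genes of NK cell cytokines and trafficking, Ccl3, a chemokine that macrophages also make, rose at 0 h (1.13, SE 0.22) and 6 h (1.35, SE 0.22), and the fractalkine receptor gene Cx3cr1 at 0 h (0.67, SE 0.16). The chemokine receptor Cxcr3 (0.48, SE 0.11) and Ifng, which encodes interferon gamma (0.30, SE 0.10, at log2 means of 3.38 in SPIO mice and 3.09 in CON mice), passed at 24 h with positive differences. Ifng and Cd226 lay far below the array medians. Whether these 2 probe sets, or others below the medians such as those of Il2rb and Eomes, were above background is not known from the values used here. The list's median was 0.18 at that time.

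Markers of some other blood cells also differed between the arms at 24 h, when 2 of the 9 members passed and 20.3% of all genes rose and 3.66% fell. At that time 5 of 16 T cell markers rose (Cd3d by 0.85, SE 0.18), as did 6 of 11 B cell markers (Cd79b by 0.96, SE 0.30) and 7 of 9 monocyte markers (Ifitm6 by 2.46, SE 0.48). Fewer rose among neutrophil markers (1 of 9), mast cell and basophil markers (1 of 10) and innate lymphoid type 2 cell markers (1 of 8). The mean of the T cell list ranged from 5.88 to 6.36 in SPIO mice and 5.82 to 6.26 in CON mice at 24 h, that of the B cell list from 6.25 to 7.33 in SPIO mice and 5.82 to 6.46 in CON mice, and that of the monocyte list from 9.63 to 10.48 in SPIO mice and 8.52 to 9.82 in CON mice. At 24 h 13 of 15 heat shock genes were lower in SPIO than in CON mice, and their mean was 10.96 to 11.83 in SPIO mice and 12.21 to 12.77 in CON mice. The CON group of 24 h had the highest mean of the 12 groups for this list (12.44), and the SPIO group of 24 h had the highest of the 6 SPIO groups (11.30). The part of these lists in the difference of Nkg7 and Eomes was not tested.

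At 0 h, 5 of 16 T cell markers and 6 of 11 B cell markers were higher in SPIO than in CON mice, as was 1 of 9 monocyte markers, while 2.56% of all genes were higher. The count was 0 of 9 for neutrophil markers, 0 of 10 for mast cell and basophil markers and 1 of 8 for innate lymphoid type 2 cell markers. At that time 6 of 15 heat shock genes were lower, against 1.11% of all genes. In CON mice at 0 h, where 8 members were lower than in the other CON groups, 9 of 16 T cell markers, 6 of 11 B cell markers and 3 of 9 monocyte markers were lower as well, beside 4.22% of all genes. Of 9 neutrophil markers 0 were lower and 1 was higher. Of 10 mast cell and basophil markers 1 was lower, and of 8 innate lymphoid type 2 cell markers 1 was lower and 1 higher. In the same contrast 4 of 15 heat shock genes were higher and 1 lower, and 5.79% of all genes were higher. The part of these lists in the lower level of the members was not tested. At 168 h none of the T cell, B cell or monocyte markers passed between SPIO and CON mice, nor did any member, where 2.19% of all genes passed. The median difference at 168 h was 0.29 for T cell, 0.33 for B cell and -0.48 for monocyte markers, against 0.46 for the members. For B cell markers it was 0.85 at 0 h, 0.65 at 24 h and 0.63 at 96 h, against 0.36, 0.33 and 0.26 for the members. Mouse by mouse, the mean of the members followed that of the other NK cell receptors (r = 0.82), the T cell list (0.74) and the B cell list (0.71), and ran against that of the heat shock genes (-0.52). The remaining lists of the cytotoxic program gave lower r than the B cell list. They were the other transcription factors (0.63), cytokines and trafficking (0.53), other granule genes (0.52) and interleukin signaling (0.52). The innate lymphoid type 2 list was also at 0.52. With the monocyte list r was -0.04 and with the neutrophil list -0.29, all as descriptions over the same 60 arrays.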

How the data were processed

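Total RNA from the right diaphragmatic lung lobe of 60 mice was hybridized to Affymetrix whole-genome mouse arrays. The authors deposited 1 table of log2 values per probe set, made with RMA (background correction, quantile normalization and summarization), with a column for each mouse; RMA is named in the submitters' processing notes without a version. Of the 45101 rows, 64 control probe sets were left out. Of the other 45037 probe sets, 34945 carried 1 gene symbol, 932 several and 9160 none in the platform annotation, and for each of 18193 genes the probe set of highest mean over the arrays stood for the gene. Because values share 1 scale per probe set, levels were compared between mice and not between genes.

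Groups came from the sample labels. Differences were tested with limma 3.58.1 in R 4.3.3 (1 linear model over 12 groups, 48 residual degrees of freedom, Benjamini-Hochberg adjustment over all genes in each contrast, threshold 0.05, no fold minimum). Single genes were also tested by a two-sided exact permutation of 10 mice (252 divisions). Correlations used deviations from group means and 100000 resamples within groups (scipy 1.17.1). The procedure was tested on simulated data. The named genes are all 10 members with all their probe sets, at most 3 passing genes of smallest p for each other list and time, and 5 genes most alike in pattern to the members' mean and to Ccl5. The members and the lists were chosen with earlier results of these data known. Alternatives were other choices of probe set, quantile normalization again, centring on the median, a filter on low values, array weights, a replicate block, each time alone, trended moderation, the methods' test (analysis of variance with unequal variances, then Tukey's test), a 1.5-fold minimum and leaving out each mouse. Replicate numbers do not pair mice. A planned comparison of protein sequences was not run. The number of arrays limits the precision.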

Additional observations from a re-analysis of the deposited data

Results flagged for a closer look

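Single mice far from the others of their group were looked for in 108 sets of 5 mice (9 genes in 12 groups) by Dixon's test, which flags about 1 in 20 sets by chance, and 5 were found. SPIO mouse 2 at 168 h was low for Gzma, at 8.86 against 9.58 to 9.80 in the other 4, and for Gzmb, at 5.96 against 6.67 to 6.74. SPIO mouse 3 at 0 h was high for Prf1, at 6.16 against 5.81 to 5.90. SPIO mouse 5 at 0 h was high for Il2rb, at 5.50 against 5.15 to 5.24. CON mouse 1 at 24 h was high for Ccl5, at 8.90 against 8.10 to 8.33.

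For 2 genes all SPIO mice lay on opposite sides of the CON mean at different times. For Prf1 the SPIO minus CON difference was 0.26 at 0 h, against -0.34 at 48 h and -0.31 at 96 h, and the limma interactions with 0 h had adjusted p-values of 0.16 and 0.61. For Klrd1 the difference was -0.25 at 48 h, against 0.49 at 168 h, and the change between these times was not tested.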

How the results depend on the processing

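The number of members passing at 24 h was 2, and became 1 with the mean of all probe sets of a gene (Nkg7), 1 with a 1.5-fold minimum (Nkg7), 0 with the methods' test, and 1 to 3 when single mice were left out. At 0 h it was 0, and became 1 (Ncr1) with a filter on low values, with array weights, and without CON mouse 1 at 0 h and SPIO mouse 3 at 24 h together; it was 0 to 1 when single mice were left out. With the mean of all probe sets of a gene the members' median difference was 0.23 at 24 h and 0.24 at 96 h. At 168 h the number passing was 0 to 2 when single mice were left out. Within arms, array weights gave 1 member for SPIO mice at 0 h, 2 for CON mice at 24 h and 3 for CON mice at 96 h, and leaving out those 2 mice gave 1 for CON mice at 96 h, against 0 in each. Leaving out single mice gave 4 to 7 for CON mice at 0 h, 0 to 1 for CON mice at 24 h, 0 to 2 for CON mice at 96 h and 0 to 3 for SPIO mice at 96 h. The alternatives for contrasts within arms were chosen after seeing the data. The causes of these shifts were not tested.

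Of 642 single-gene values under the alternatives, 631 kept direction and side of the threshold, 4 lost their call, 3 gained one and 4 uncalled values changed sign. Of 540 values with 1 mouse left out, 498 kept both, 3 lost their call, 4 gained one and 35 uncalled values changed sign. No called value reversed. The SPIO and CON mouse of the same number and time did not deviate together (r from -0.51 to 0.47, over 0.1 in 7 of 30 pairs). Across times, CON mouse 1 had the highest members' mean of its group at 0, 6, 24, 48 and 96 h. It lay 0.31, 0.26, 0.42, 0.25 and 0.38 above the group mean at these times, but at -0.44 at 168 h. SPIO mouse 1 was at -0.17, -0.18, -0.29, 0.04, -0.21 and 0.10 over the 6 times. The fit with the replicate block, which is shared by both arms, left 2 members passing at 24 h. The filter on low values left out Il2rb, and log2 levels near 5, as for Il2rb and Eomes, are near the bulk of all probe sets, whose array medians were 5.53 to 5.64.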
